A study of Rattus norvegicus with 6 samples.

Results

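Npas4, the aryl hydrocarbon receptor gene Ahr, their relatives Npas3, Arnt, Arnt2, Ahrr and Hif1a, and the AHR-linked gene Tiparp were examined in rat hippocampal cultures after chemically induced long-term potentiation (cLTP). The 8 genes were listed by name, and 7 of them had a row in the table of 32883 genes. The expression of Npas3 was not analysed here. All 7 passed the filter on low values (a mean of at least 1) that left 17315 genes in the test. The list was chosen by gene family together with the measured difference between these cLTP and DMSO libraries, in which Npas4 and Tiparp had been seen to be higher, so the values, intervals and p-values of the 7 genes are a description and not an independent test.

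The bHLH-PAS family comprises transcription factors that bind DNA as pairs, in which a regulated subunit such as NPAS4, AHR or HIF1A joins a general partner, ARNT or ARNT2. NPAS4 is made by neurons after electrical activity and calcium entry, AHR waits in the cytosol with HSP90 until a ligand such as a dioxin binds it, and HIF1A is destroyed while oxygen is plentiful. AHRR competes with AHR for ARNT, and TIPARP (also called PARP7) is an AHR target gene product that attaches ADP-ribose to AHR and limits its activity.

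Primary hippocampal neurons of Wistar rat pups at postnatal day 0 were grown in plates and treated at 13 to 15 days in vitro. The cLTP group (3 libraries) received 50 µM forskolin, which activates adenylyl cyclase, 50 nM rolipram, which blocks PDE4 phosphodiesterases, and 200 µM picrotoxin, which blocks GABA-A receptors. The control group (3 libraries) received DMSO, in which the cLTP agents were dissolved according to the labels, and neither group carries a genetic change in the labels. The labels do not say how long after treatment the cultures were harvested. The libraries held 10668973 to 12776185 gene-assigned reads. Values below are normalised read counts, which are not divided by transcript length, so levels are compared between libraries for 1 gene and never between genes.

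The labels name neurons, and neuronal markers were present in every library, with Rbfox3, which encodes the nuclear marker NeuN, at 713 to 883. Astrocyte markers were present in every library too, and Gfap, a filament protein of astrocytes, lay between 62521 and 101520. Library numbers are the replicate numbers in the titles. Below, culture number means this number, and culture 3 means the libraries numbered 3. The labels do not say that libraries with the same number share a culture. The summed astrocyte list was lower in the libraries numbered 3 of both groups (110517 in DMSO 3 and 127690 in cLTP 3) than in the other 4 libraries (170117 to 180826). The 6 measured microglia markers summed to 347 in DMSO 3 and 364 in cLTP 3, against 47.3 to 61.8 elsewhere, where Aif1 and Cx3cr1 were at 0. Csf1r (163 and 157) and Cd68 (110 and 125) made up most of the sums in DMSO 3 and cLTP 3. Not every marker was highest there: Tmem119 was at 10.5 in DMSO 1 and 7.88 in DMSO 3, on few reads. The 8 neuron markers summed to 50874 to 61443 in DMSO and 51565 to 65070 in cLTP, and 0 of the 8 passed in limma (3 were higher with the culture number as a block). The astrocyte list had 0 of 6 genes past the threshold in limma, and 2 higher and 1 lower with the block. The 7 mural and fibroblast markers summed to 1280 to 1391 in DMSO and 1075 to 1126 in cLTP without overlap. That gap came from 1 gene, the growth factor receptor gene Pdgfrb, which fell from 376, 345 and 267 to 113, 104 and 66.1 (0.284-fold, limma adjusted p = 0.00106). The other 6 did not pass. Of these, Col1a1 (0.905-fold), Col1a2 (0.875-fold), Dcn (1.14-fold) and Lum (1.03-fold) overlapped between the groups, and Acta2 and Rgs5 had at most 6 reads per library. The part of these lists in the results below was not tested. In such bulk samples fewer cells of a type and less RNA per cell cannot be told apart.

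The proximal promoters of 4 members are shown because 2 of these genes, Npas4 and Tiparp, rose after cLTP, while Arnt and Ahrr hold the fullest matches to a cyclic AMP response element and to an AHR response element and did not pass the test. Each is the RefSeq sequence (GRCr8) of the 250 bases before the annotated start, on the strand of the gene, with motif matches in capitals.
Npas4, chr1:211716103-211716352, minus strand: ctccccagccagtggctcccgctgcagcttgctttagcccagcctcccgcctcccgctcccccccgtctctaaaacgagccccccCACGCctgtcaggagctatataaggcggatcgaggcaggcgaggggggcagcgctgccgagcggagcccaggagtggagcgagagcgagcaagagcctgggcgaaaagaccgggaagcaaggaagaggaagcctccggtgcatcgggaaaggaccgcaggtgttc
Tiparp, chr2:152063519-152063768, plus strand: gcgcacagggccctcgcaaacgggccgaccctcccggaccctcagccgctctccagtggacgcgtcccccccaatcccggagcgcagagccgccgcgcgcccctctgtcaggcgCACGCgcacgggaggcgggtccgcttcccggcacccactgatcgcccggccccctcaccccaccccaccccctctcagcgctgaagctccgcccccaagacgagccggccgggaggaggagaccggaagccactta
Arnt, chr2:185686453-185686702, plus strand: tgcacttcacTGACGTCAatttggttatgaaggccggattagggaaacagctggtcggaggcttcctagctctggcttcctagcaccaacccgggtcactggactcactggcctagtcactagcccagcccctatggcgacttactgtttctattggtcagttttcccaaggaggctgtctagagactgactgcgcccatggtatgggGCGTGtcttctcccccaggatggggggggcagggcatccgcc
Ahrr, chr1:30821969-30822218, plus strand: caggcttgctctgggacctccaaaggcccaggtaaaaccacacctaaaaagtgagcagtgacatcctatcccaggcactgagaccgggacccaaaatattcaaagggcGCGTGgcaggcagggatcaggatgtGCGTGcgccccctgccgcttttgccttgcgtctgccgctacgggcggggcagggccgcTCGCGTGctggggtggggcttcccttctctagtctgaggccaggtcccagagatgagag
Both strands were searched for GCGTG, the core of the AHR-ARNT site, which 25.9% of 33469 RefSeq promoter windows of this length hold, and for TNGCGTG, its longer form, which 4.09% hold. The same windows were searched for ACGTG, the core of the HIF site (16.6%), for TCGTG, a core bound by NPAS4 with ARNT (14.2%), for TGACGTCA, the full cyclic AMP response element (1.59%), and for TGACG, the shorter form of that element, which the full element contains (18.2%). The windows of Npas4 and Tiparp each hold 1 GCGTG core, read on the opposite strand as CACGC, 165 and 136 bases before the start, and none of the other motifs. The Arnt window holds TGACGTCA, 240 bases before the start, and a GCGTG core 42 bases before it. The Ahrr window holds 3 GCGTG cores, the nearest of which belongs to TNGCGTG, 59 bases before the start. Among the members not printed, Hif1a holds 3 matches to ACGTG, 2 of which overlap as a palindrome, Npas3 holds 1, and Ahr and Arnt2 hold none of the motifs searched. These matches describe letters in a short window and not bound sites.

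In the comparison of cLTP with DMSO, which asks which transcripts change on stimulation, 2 of the 7 measured members passed an adjusted p of 0.05 and both were higher after cLTP (Npas4 and Tiparp). Of all genes tested 9.02% passed, 5.71% as higher and 3.31% as lower. With the culture number as a block, 2 members passed, Tiparp as higher and Ahr as lower, against 23.5% of all genes (12.9% higher and 10.7% lower). Because the members were chosen with this contrast known, nothing is read from their share. Arnt, Arnt2, Hif1a and Ahrr did not pass in either fit.

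**Figure D1:**
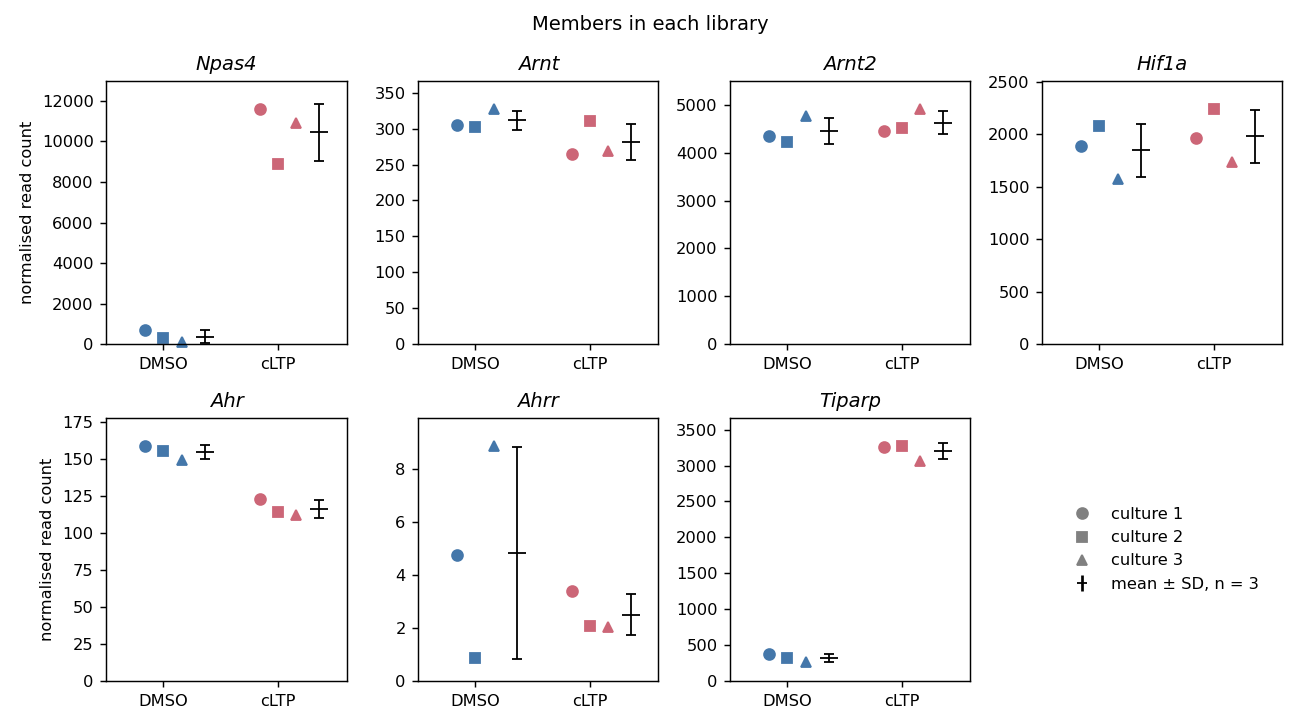
Normalised read count (vertical axes, linear, each from 0 and with its own scale) of the 7 measured members in the 3 DMSO and 3 cLTP libraries. Points are libraries with the culture number as the symbol, and the bars are mean ± SD (n = 3). The groups do not overlap for Npas4, Tiparp and Ahr and overlap for the other 4 genes. The share of all genes without overlap was not counted, so nothing is read from this.

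Npas4 (ENSRNOG00000020009), the activity-dependent member, was at 709, 306 and 84.7 in DMSO 1, 2 and 3 and at 11591, 8881 and 10908 in cLTP 1, 2 and 3. Every cLTP library lay far above every DMSO library, and the DMSO libraries differed much more among themselves than the cLTP libraries did. The mean went from 367 ± 316 to 10460.0 ± 1409 (SD, n = 3). The difference of the mean log2 values was 5.29 with SE 0.71 (39.2-fold, 95% interval 11.9 to 128, limma adjusted p = 0.00631). That fold exceeds the ratio of the 2 printed means, and edgeR and DESeq2 on the recovered reads gave 28.4-fold and 28.5-fold. The Npas4 levels rest on 86 to 745 reads per DMSO library and 8569 to 10722 reads per cLTP library. By the limma log2 difference, it had the increase of rank 8 among the genes tested.

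The size of the Npas4 increase depended on which control was used as reference. The highest DMSO library exceeded the lowest 8.37-fold, whereas the ratio among cLTP libraries was 1.31. On the log2 scale the SD of Npas4 over the DMSO libraries was 1.54, and 6 of the 10502 genes with a mean of at least 100 had a larger one (median of these genes 0.11). Over the cLTP libraries its SD was 0.20, against a median of 0.12. The differences between same-numbered libraries were 4.03, 4.85 and 6.99 on the log2 scale. Without DMSO 1 the log2 difference was 6.00, without DMSO 3 it was 4.48, and without culture 3 of both groups it was 4.44 (limma adjusted p = 0.0867). The call was also lost with the culture number as a block (limma adjusted p = 0.0737, log2 interval 1.94 to 8.64) and without DMSO 2 (limma adjusted p = 0.0513). DMSO 3, the library lowest in Npas4, had the lowest astrocyte sum (110517), a high microglia sum (347) and the highest neuron sum of the controls (61443), and the part of these in the Npas4 spread was not tested.

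**Figure D2:**
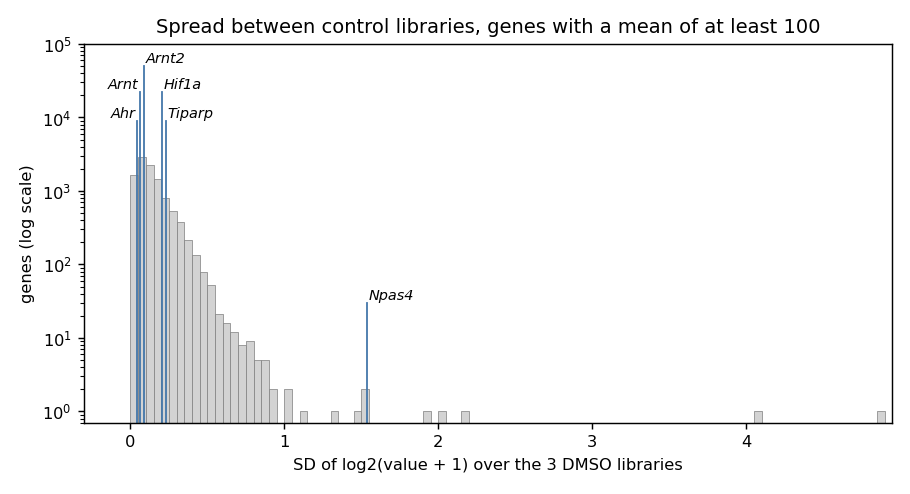
Histogram of the SD of log2(value + 1) over the 3 DMSO libraries (horizontal axis) for the 10502 genes with a mean of at least 100, with the number of genes on a log vertical axis. Vertical lines mark 6 members, whose line heights carry no value. Npas4 lies at 1.54, beyond nearly all genes, and Ahr, Arnt and Arnt2 lie below the median of 0.11.

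Genes reported as NPAS4 targets in rodent neurons were described by a list of 10, which was chosen with results of these libraries known, so that its direction is not independent evidence. Of these 10, 6 passed, each of them higher, where 5.71% of all genes tested passed as higher, and the median log2 difference was 1.68, against 0.00 over all genes tested. Rgs2, a regulator of G protein signalling, had the highest fold among them and rose from 360, 223 and 418 in the DMSO libraries to 2294, 2134 and 2495 in the cLTP libraries (7.12-fold, 95% interval 5.12 to 9.91, limma adjusted p = 8.45e-05). Csrnp1, which encodes a nuclear protein, rose from 322, 212 and 198 to 1267, 1155 and 1251 (5.12-fold). In neither gene did the groups overlap, but both were named because they passed, so nothing is read from this. The highest DMSO library exceeded the lowest 1.88-fold for Rgs2 and 1.62-fold for Csrnp1. Plk2, a kinase that acts in synaptic scaling, rose 5.13-fold and Scg2, a secretory granule protein, 3.73-fold. Nptx2, a secreted pentraxin that gathers AMPA receptors, was at 1085, 430 and 562 in DMSO and 2641, 2329 and 2390 in cLTP (3.82-fold, limma adjusted p = 0.00732). Bdnf, a neurotrophin, was at 2309, 1022 and 1665 in DMSO and 4067, 3696 and 5432 in cLTP (2.75-fold, limma adjusted p = 0.0179). Among the controls both genes were highest in DMSO 1, as Npas4 was, but lowest in DMSO 2 and not in DMSO 3. Their calls were lost with the culture number as a block (limma adjusted p = 0.0785 for Nptx2 and 0.113 for Bdnf) and without culture 3 of both groups (0.309 and 0.379), so 4 of the 10 genes passed as higher with the block, where 12.9% of all genes did. Syt10, a synaptotagmin, went from 10.5 ± 8.05 to 18.0 ± 10.3 and Mdm2, the ligase that degrades p53, from 822 ± 103 to 785 ± 87.0, with overlapping groups and no call.

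The partner genes without which NPAS4, AHR and HIF1A do not bind their sites showed no call. Arnt (ENSRNOG00000031174) was at 305, 303 and 327 in DMSO 1, 2 and 3 and at 265, 310 and 269 in cLTP 1, 2 and 3. The cLTP 2 value lay inside the DMSO range and the other cLTP values lay below it. The log2 difference was −0.15 with a 95% interval of −0.37 to 0.07 (limma adjusted p = 0.443), which corresponds to −22.7% to 4.94%. Arnt2 (ENSRNOG00000013017), the partner found mainly in brain and kidney, was at 4356, 4232 and 4767 in DMSO and at 4458, 4512 and 4908 in cLTP. Its groups overlapped across most of their range, and the log2 difference was 0.06 (95% interval −0.13 to 0.24, limma adjusted p = 0.780), or −8.70% to 18.4%.

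Hif1a (ENSRNOG00000008292), the oxygen-regulated subunit, was at 1892, 2080 and 1576 in DMSO 1, 2 and 3 and at 1969, 2241 and 1739 in cLTP 1, 2 and 3. The groups overlapped, and in each culture number the cLTP library was slightly above its DMSO counterpart, by 0.06, 0.11 and 0.14 on the log2 scale. The log2 difference was 0.10 (95% interval −0.18 to 0.38, limma adjusted p = 0.724), and it did not pass with the culture number as a block either (limma adjusted p = 0.146). When libraries were scaled to equal totals, the median of all genes moved to −0.11, and on that scale Arnt2 (−0.06) and Hif1a (−0.01) were below 0. Relative to that median they stood at 0.05 and 0.10. After quantile normalisation Arnt2 was at −0.13 and Hif1a at −0.02, where the median was −0.05, and relative to it they stood at −0.08 and 0.03.

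**Figure D3:**
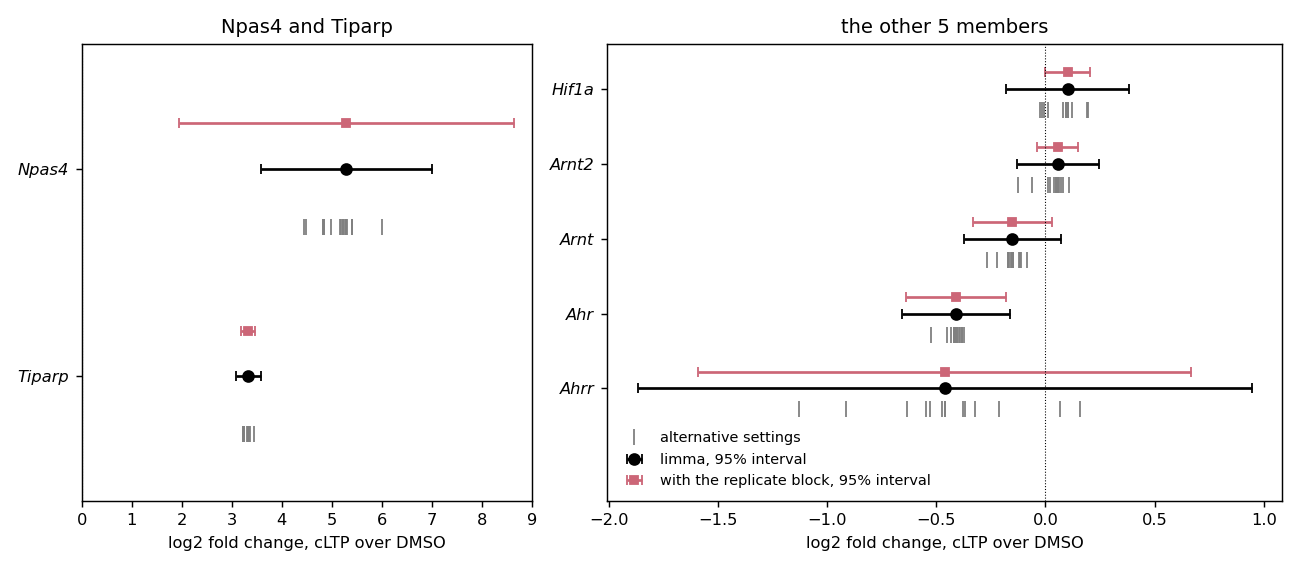
Log2 difference of cLTP over DMSO for the 7 measured members (horizontal axes, a separate scale in each panel), with black 95% intervals from limma, red 95% intervals with the culture number as a block, and grey ticks for the alternative settings. The black intervals of Npas4 (3.58 to 7.01) and Tiparp (3.08 to 3.59) lie far above 0, that of Ahr (−0.66 to −0.16) lies below it, and those of Arnt, Arnt2, Hif1a and Ahrr include 0.

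Among 7 regulators of HIF stability 1 passed (median log2 difference 0.03), where 9.02% of all genes tested passed. That gene was Siah2, a ubiquitin ligase that removes the prolyl hydroxylases acting on HIF1A, which rose from 260, 259 and 256 in DMSO to 876, 850 and 797 in cLTP (3.24-fold, 95% interval 2.87 to 3.67, limma adjusted p = 3.7e-06). Its DMSO values lay within a few counts of each other and every cLTP value was far above them. With the block 2 genes of this list were higher and 1 was lower, where 12.9% and 10.7% of all genes were. Vhl, the ligase subunit that recognises hydroxylated HIF1A, went from 1085 ± 105 to 1289 ± 113 (limma adjusted p = 0.182 without and 0.00165 with the culture number as a block). Egln2, a prolyl hydroxylase that marks HIF1A, was at 666 ± 12.5 and 741 ± 26.2 (limma adjusted p = 0.267). Of 14 HIF target genes 2 rose and 1 fell (median 0.11), where 5.71% of all genes tested rose and 3.31% fell. Ndrg1, a hypoxia-induced differentiation gene, rose from 439 ± 12.4 to 785 ± 28.2 (1.79-fold, limma adjusted p = 0.00015), and Hk2, hexokinase 2, from 221 ± 52.1 to 368 ± 54.1 (1.69-fold, limma adjusted p = 0.0402). Ddit4, an inhibitor of mTORC1 also called REDD1, fell from 1377, 1421 and 1264 to 861, 850 and 813 (0.622-fold, limma adjusted p = 0.000558). The DMSO and cLTP libraries did not overlap for any of these 3 genes, which were named because they passed. The share of all genes without overlap was not counted, so nothing is read from this. The angiogenic factor gene Vegfa, a widely used HIF target, was at 2317 ± 146 and 2403 ± 195 with overlapping groups (limma adjusted p = 0.816), and Ldha, lactate dehydrogenase A, at 4317 ± 164 and 5157 ± 471 (limma adjusted p = 0.131, and 0.000574 with the culture number as a block). Car9, a carbonic anhydrase, had 0, 0 and 1 reads in DMSO and 3, 2 and 2 in cLTP, too few for a fold. The Hk2 call was lost without DMSO 1, cLTP 1, cLTP 2 or cLTP 3 (limma adjusted p = 0.0606 to 0.132).

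Ahr (ENSRNOG00000004342), the ligand-activated receptor, was at 159, 155 and 150 in DMSO 1, 2 and 3 and at 123, 114 and 112 in cLTP 1, 2 and 3. All cLTP libraries lay below all DMSO libraries, and both groups were narrow. The mean was 155 ± 4.65 in DMSO and 116 ± 5.82 in cLTP, a log2 difference of −0.41 with SE 0.11 (95% interval −0.66 to −0.16, or −36.6% to −10.6%). Its limma adjusted p of 0.0510 missed the threshold narrowly, and with the culture number as a block it passed (limma adjusted p = 0.0105). The same-numbered differences were −0.37, −0.44 and −0.42. The call turned on the method: edgeR on the recovered reads gave an adjusted p of 0.0374 and DESeq2 0.120, and Ahr passed in 6 of 19 alternatives. These values rest on 152 to 177 reads per DMSO library and 109 or 110 reads per cLTP library, so each is measured with limited precision.

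Ahrr (ENSRNOG00000014721), the AHR repressor and a classical AHR target, was close to the detection limit. It had 5, 1 and 9 reads in DMSO 1, 2 and 3 and 3, 2 and 2 reads in cLTP 1, 2 and 3. All cLTP libraries were at or below 3 reads, which correspond to a normalised value of 2.63 to 3.38, and the groups overlapped. No fold is given, and a difference was not detectable at this depth (limma adjusted p = 0.755). Its promoter, printed above, is the only member's window among the 8 with the longer AHR-ARNT motif.

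Tiparp (ENSRNOG00000011238), the mono-ADP-ribosyltransferase that acts on AHR, was at 373, 315 and 270 in DMSO 1, 2 and 3 and at 3254, 3274 and 3068 in cLTP 1, 2 and 3. Every cLTP library was several times above every DMSO library, and the cLTP libraries were nearly level with each other. The mean rose from 319 ± 51.7 to 3199 ± 113, a log2 difference of 3.33 with SE 0.11 (10.1-fold, 95% interval 8.43 to 12.0, limma adjusted p = 1.3e-06). Of all genes tested it had the p of rank 4 and the increase of rank 47. The same-numbered log2 differences were 3.12, 3.37 and 3.50, and over all 19 alternatives the log2 difference stayed between 3.22 and 3.45 and passed. In DMSO it was highest in DMSO 1 and lowest in DMSO 3, as Npas4 was, with a highest-to-lowest ratio of 1.38 in place of 8.37.

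Of the 8 classical AHR target genes listed, 5 were tested and none passed in limma, in edgeR (3 tested) or in DESeq2, and at an unadjusted p under 0.05 the counts were 0, 0 and 1. Their median log2 difference was 0.18, and 9.02% of all genes tested passed in limma. Cyp1a1, the cytochrome P450 most strongly induced by AHR ligands, was near the detection limit, at 5.71, 7.90 and 6.89 in DMSO and 4.51, 6.22 and 1.02 in cLTP. Cyp1b1, a related cytochrome P450, was well detected, at 394, 385 and 424 in DMSO and 526, 383 and 470 in cLTP, and its groups overlapped (95% interval of the fold 0.942 to 1.37, limma adjusted p = 0.443). Nfe2l2, the regulator of antioxidant genes also called NRF2, went from 853 ± 216 to 1181 ± 265 (limma adjusted p = 0.264 without and 5.49e-05 with the culture number as a block). With the block 3 of the 5 were higher at an unadjusted p under 0.05. Of these 1 passed after adjustment, Nfe2l2, where 23.5% of all genes did.

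Among 16 other tested genes of ADP-ribose transfer and removal, 1 passed in limma and it fell (median −0.08), where 9.02% of all genes passed. No gene of this list passed as higher in limma or edgeR, and 1 did in DESeq2, which was also the count at an unadjusted p under 0.05 in each of these tests. Parp16, a mono-ADP-ribosyltransferase of the endoplasmic reticulum, fell from 36.2, 48.3 and 39.4 in DMSO to 20.3, 13.5 and 19.3 in cLTP (0.439-fold, 95% interval 0.302 to 0.638, limma adjusted p = 0.0145), and its groups did not overlap. The call was lost without DMSO 2 (limma adjusted p = 0.0731). Tnks, tankyrase, went from 1937 ± 220 to 2603 ± 352 (limma adjusted p = 0.0574), and Parp11, a mono-ADP-ribosyltransferase, from 272 ± 23.6 to 204 ± 21.3 (limma adjusted p = 0.0602). Of the 19 alternatives, Tnks passed in 6 and Parp11 in 7. Both passed with the culture number as a block (limma adjusted p = 4.14e-06 and 0.00446), where 1 gene of this list was higher and 3 were lower. In that fit 12.9% of all genes were higher and 10.7% lower.

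Of 13 other bHLH-PAS genes tested, 1 rose and 2 fell (median −0.23), where 5.71% of all genes rose and 3.31% fell. The 3 genes belong to the circadian clock. Per1, a clock repressor whose promoter answers to cyclic AMP signalling, rose from 1177, 928 and 1089 in DMSO to 5367, 6133 and 5579 in cLTP (5.36-fold, limma adjusted p = 2.93e-06). Per3, its relative, fell from 414, 391 and 354 to 286, 257 and 230 (0.667-fold, limma adjusted p = 0.0107). Arntl, also called BMAL1 and the clock counterpart of ARNT, fell from 397, 471 and 347 to 299, 281 and 247 (0.685-fold, limma adjusted p = 0.0303). The groups did not overlap for any of the 3, which were named because they passed, so nothing is read from this. Clock, the partner of BMAL1, was at 1313 ± 26.3 in DMSO and 1119 ± 92.7 in cLTP (limma adjusted p = 0.122 without and 0.00481 with the culture number as a block). Ncoa3, a coactivator with bHLH and PAS domains, went from 696 ± 72.5 to 517 ± 71.4 (0.0573 without and 5.78e-05 with it), and Epas1, which encodes HIF2A, from 4512 ± 854 to 5104 ± 786 (0.604 and 0.00694). Of the 19 alternatives, Ncoa3 passed in 9, Clock in 4 and Epas1 in 2. With the block 2 genes of this list were higher and 5 lower, where 12.9% and 10.7% of all genes were. The Arntl call was lost without any 1 library except DMSO 3 (limma adjusted p = 0.0669 to 0.104), and that of Per3 without DMSO 1 (0.0574).

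Among 10 chaperone and cofactor genes 1 passed (median 0.02), where 9.02% of all genes tested passed. Cited2, which competes with HIF1A for the coactivators CBP and p300, rose from 731, 828 and 729 in DMSO to 2737, 3059 and 2856 in cLTP (3.78-fold, 95% interval 3.32 to 4.31, limma adjusted p = 2.98e-06). All cLTP libraries were more than 3 times above all DMSO libraries. Hsp90aa1, a chaperone subunit that holds AHR in the cytosol, went from 7168 ± 328 to 8881 ± 821 (limma adjusted p = 0.0857), and Crebbp, the coactivator CBP, from 1348 ± 44.1 to 1103 ± 162 (limma adjusted p = 0.129). Of the 19 alternatives, Hsp90aa1 passed in 3 and Crebbp in 5. Both passed with the culture number as a block (limma adjusted p = 6.05e-05 and 0.00141), where 4 genes of the list were higher and 1 lower. In that fit 12.9% of all genes were higher and 10.7% lower. Over the 7 pathway lists together, 11 of 75 tested genes rose and 4 fell, beside 5.71% and 3.31% of all genes tested; the lists were chosen with results known, and nothing is read from these shares.

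**Figure D4:**
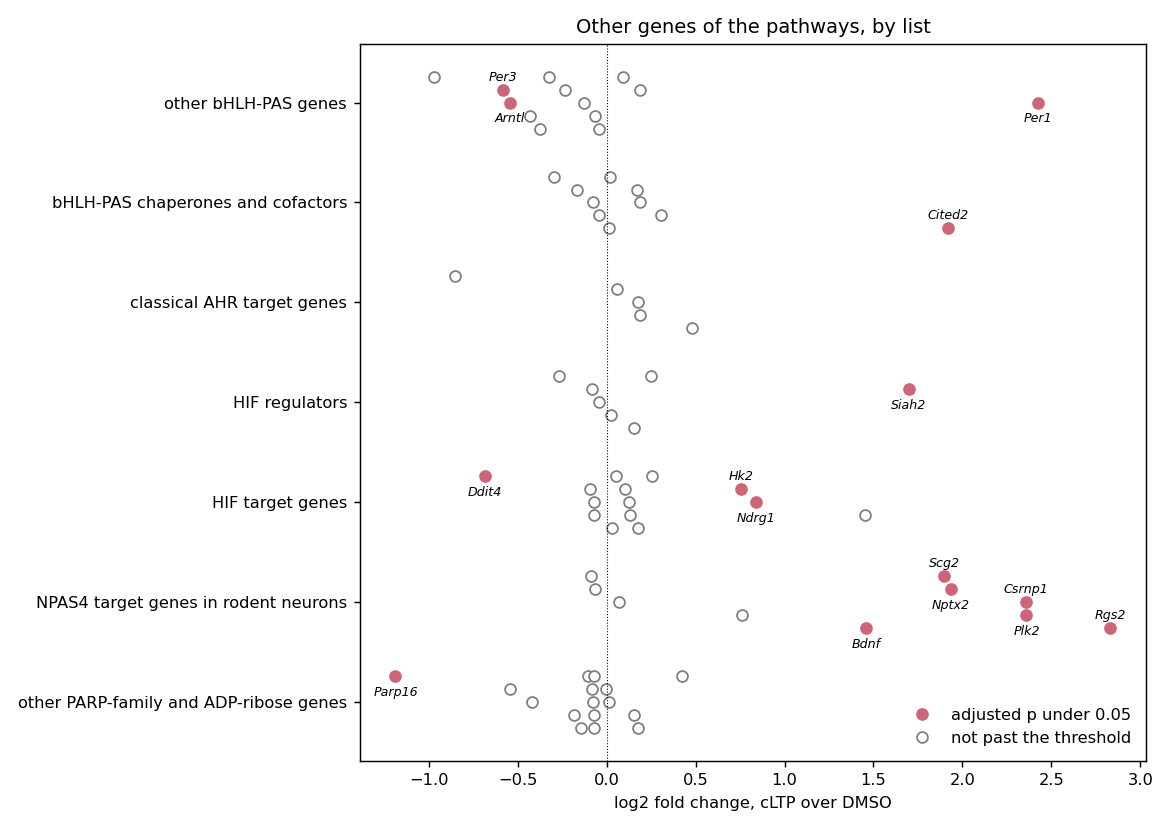
Log2 difference of cLTP over DMSO (horizontal axis) for the tested genes of the 7 pathway lists (rows), with filled points for limma adjusted p under 0.05 and open points otherwise; vertical offsets within a row only separate the points. Most points lie near 0, and the named genes range from Parp16 (−1.19) to Rgs2 (2.83).

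For Npas4, Tiparp and Ahr, the genes with the most similar pattern were sought among 9830 genes with a mean of at least 100 over the 6 libraries and an established symbol, by the root-mean-square difference over the 6 libraries of log2 values centred on the DMSO mean. The difference between the groups enters this measure, so it is a description of these libraries. Nearest to Npas4 were Fosb (0.46), Klf4 (0.53) and Ibsp (0.66), against a median of 3.84 over the candidates. Fosb, an AP-1 subunit, was at 909, 209 and 172 in DMSO 1, 2 and 3 and at 13771, 11495 and 15269 in cLTP 1, 2 and 3. Klf4, a zinc-finger transcription factor, was at 199, 122 and 71.9 and at 5730.0, 5723 and 3917. Ibsp, which encodes the matrix protein bone sialoprotein, had 7, 3 and 0 reads in the DMSO libraries and 141, 280 and 164 in the cLTP libraries. It met the minimum mean through its cLTP values alone, and its control values rest on these few reads. The order of the controls in the 3 genes, highest in DMSO 1 and lowest in DMSO 3 as in Npas4, is part of what chose them.

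Nearest to Tiparp were Junb (0.12), Nr4a3 (0.19) and Ell2 (0.21), against a median of 2.36. Junb, an AP-1 subunit, was at 1155, 961 and 700.1 in DMSO and 10359, 8644 and 9711 in cLTP, Nr4a3, an orphan nuclear receptor, at 2126, 1374 and 1474 and at 15537, 19584 and 13018, and Ell2, a transcription elongation factor, at 379, 293 and 271 and at 2592, 3333 and 2274. Tiparp varied less among cLTP libraries than each of these, with a log2 SD of 0.05 against 0.13, 0.30 and 0.28. Nearest to Ahr were Exoc8 (0.012), Zfp354c (0.031) and Soga1 (0.034), against a median of 0.33. Exoc8, an exocyst subunit, went from 414 ± 12.8 to 313 ± 16.9, a zinc-finger gene, Zfp354c, from 827 ± 26.7 to 620.1 ± 33.5, and Soga1 from 711 ± 7.29 to 530.5 ± 18.1. With 295 to 968 reads per library and differences of −0.40, −0.42 and −0.42 on the log2 scale, these 3 genes passed the test (limma adjusted p = 0.0191, 0.00984 and 0.00686). They were chosen for values like those of Ahr, its group difference included, so their calls are no evidence on Ahr. The Exoc8 call was lost without DMSO 1, DMSO 2, cLTP 2 or cLTP 3 (limma adjusted p = 0.0585 to 0.0885), and that of Zfp354c without DMSO 1 or DMSO 2 (0.0516 and 0.0513).

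**Figure D5:**
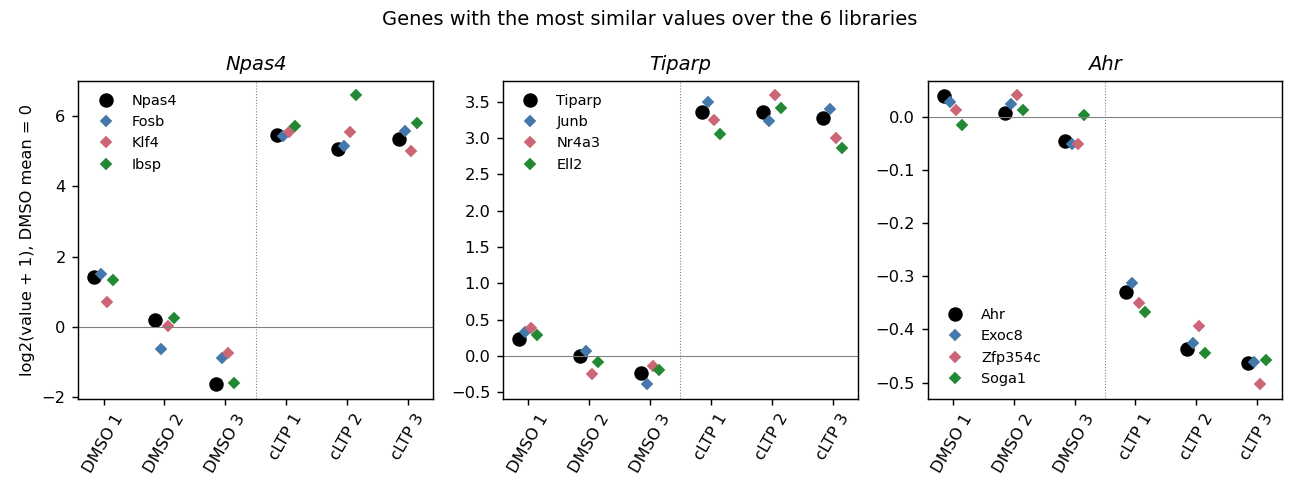
Log2 value minus the gene's DMSO mean (vertical axis) in each of the 6 libraries (horizontal axis) for Npas4, Tiparp and Ahr and the 3 genes nearest to each, in 3 panels with their own scales. Black circles are the member and diamonds the other genes, offset sideways for legibility. In the Npas4 panel the controls lie farther apart than the cLTP libraries, and in the Ahr panel the points of the 4 genes nearly coincide. The other genes were chosen for this closeness, and Ahr rests on 109 to 177 reads per library.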

How the data were processed

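Stranded polyA libraries of 3 DMSO and 3 cLTP cultures were sequenced, per the labels' protocols, whose text also names sorted cells of operated animals that do not match these cultures. The labels do not state separate litters, so p-values reflect only how far these 6 libraries spread, which may be technical. The tools were bcl2fastq, STAR and DESeq2 with build rn6, per the submitters' processing notes, with versions, counter, strand setting and annotation not given in the sources used here. How reads of overlapping genes were assigned is therefore unknown. The deposited table holds a normalised signal per gene, and in every library 100% of nonzero values equalled a whole number of reads within 0.01, from which read counts were recovered.

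R 4.3.3 and limma 3.58.1 (eBayes, trend, robust) compared log2(value + 1) for genes with a mean of at least 1, without a block. Two-sided p-values were Benjamini-Hochberg adjusted over 17315 genes, at a threshold of 0.05. Folds come from differences of mean log2 values, so they can differ from the ratio of the printed means. On this scale they understate changes of low genes. edgeR 4.0.16 (quasi-likelihood) and DESeq2 1.42.0 on the recovered reads called 1623 and 1642 genes, and limma 1561. Tests were checked on simulated counts. These had a common dispersion for all genes and no replicate effect, so the check does not cover genes as variable as Npas4. After removal of group means, same-numbered libraries correlated at 0.217, 0.297 and 0.544 (limit 0.1). Cultures 1 and 2 also passed this limit when crossed (0.156 and 0.189). Same-numbered libraries were treated as pairs only in the fits with the block, which are alternatives. The main test has no block because the labels do not state that a number pairs libraries. Replicates differed beyond counting noise (chi-square over degrees of freedom 3.84 to 18.8). The share of all genes without overlap between the groups was not counted, so non-overlap only describes single genes. Members and lists were chosen with earlier results of these data known. Named genes are all members, list genes past the threshold, up to 2 others per list with the lowest p, role genes and the 3 nearest patterns; 1 role gene is not reported here by name but is in the counts. RefSeq promoters (GRCr8) were matched by symbol for 8 of 8 members.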

Additional observations from a re-analysis of the deposited data

How the results depend on the processing

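Tiparp kept its direction and call in all 19 alternatives, Npas4 kept its direction in all 19 and its call in 14, and Ahr stayed lower in all 19 and passed in 6. The Npas4 call was lost in edgeR without a filter on low counts (adjusted p = 0.0522), with either block, without DMSO 2 and without culture 3. The number of members called was 1 in edgeR without a filter and 1 without culture 3 of both groups, 1 to 2 when 1 library was left out, and 3, with Ahr, after scaling to equal totals, in edgeR with either scaling and with a minimum mean of 10. Over all genes, leaving out 1 library gave 953 to 1408 calls, and over the pathway lists 12 to 19, against 15 in all 6 libraries.

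With the culture number as a replicate block, limma called 4075 genes and 29 list genes, and edgeR called 4124 and 30. The block changed the calls of members only for Npas4 and Ahr. Scaling to equal totals gave 823 higher and 1323 lower genes and quantile normalisation 897 and 799, against 988 and 573.

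The sign of small log2 differences that did not pass changed in several cases. With equal totals the value was −0.0604 for Arnt2, −0.0143 for Hif1a and −0.0654 for Vegfa, each above the median of all genes on that scale (−0.11), by 0.05, 0.10 and 0.05, so these signs follow that shift. After quantile normalisation it was −0.126 for Arnt2, −0.0250 for Hif1a, −0.0135 for Epas1 and −0.0768 for Vegfa. The median of all genes on that scale was −0.05. Relative to it Hif1a (0.03) and Epas1 (0.04) stood above 0 and Arnt2 (−0.08) and Vegfa (−0.03) below. Leaving out 1 library in turn gave −1.13 to 0.0670 for Ahrr (above 0 without DMSO 3), a fitted value on 1 to 9 reads per library that is no measured fold, and −0.00835 to 0.193 for Hif1a (below 0 without DMSO 3). It gave −0.000266 to 0.117 for Vegfa (below 0 without DMSO 3) and −0.158 to 0.0303 for Mdm2 (above 0 without DMSO 2 or cLTP 3). Without culture 3 of both groups Ahrr was at 0.158. The cause of the changes other than those with equal totals was not tested. Depth limits low genes such as Ahrr, Car9 and Cyp1a1.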
